A study of Homo sapiens with 24 samples.

Results

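The H3K27me3 peak list of UMUC1 cells carrying wild-type UTX was compared with that of UMUC1 cells carrying an empty vector. UMUC1 is an established human bladder cancer cell line. The members were all broad regions that the authors deposited for these 2 libraries, 231899 in the empty-vector line (EV) and 199901 in the wild-type line (WT). Together these were 431800 of the 1483402 peaks and regions in the 18 lists of the study, and 2 of its 24 samples. Both lines were stable and held a puromycin-selectable pSIN construct, either empty or encoding wild-type UTX. Another stable line, HEAA, held the same construct with UTX bearing H1146A and E1148A, and its values are given beside those of WT. Cells were harvested 3 days after plating and fixed with paraformaldehyde, and the chromatin for the histone marks was sonicated. The labels do not say whether a line was 1 clone or a pool.

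H3K27me3, the trimethylated form of lysine 27 on histone H3, is laid down by Polycomb repressive complex 2 and marks silent developmental genes and broad stretches of inactive chromatin. UTX, the product of KDM6A, is a demethylase of this mark and is often mutated in bladder cancer. It also sits in the MLL3 and MLL4 complexes, which place H3K4me1 at enhancers, while H3K27ac marks active enhancers and promoters and cannot occupy the same lysine as H3K27me3.

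Each line had 1 H3K27me3 list, so no value taken from these lists has a replicate error or a test. How deeply each library was sequenced is unknown. A stretch without a region is one below the peak caller's threshold, not one without the mark. Fewer regions, weaker enrichment and lower depth cannot be told apart from the lists alone. Positions are on hg19, counted from 1. Chromosomes 1 to 22 and X were used, which held 231795 EV and 199801 WT regions.

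Wide H3K27me3 regions were much scarcer in WT, while narrow ones were nearly as many as in EV. The WT list held 0.382 times as many regions of 5 kb and over (1710 against 4482) and 0.595 times as many of 2 to 5 kb (12990 against 21828). The ratio was 0.768 for regions of 1 to 2 kb and 0.867 for those of 500 bp to 1 kb. Below 500 bp the counts were 89669 and 90676, a ratio of 0.989. Regions of at least 10 kb numbered 554 in EV and 143 in WT, and the widest region was 43296 bp in EV and 35537 bp in WT. The mean width was 1032 bp in EV and 843 bp in WT, and the median 613 and 546 bp.

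Covered bases went down in step with width. Of the 70.7 Mb by which WT coverage was smaller, regions of 2 to 5 kb accounted for 39.0% and those of 5 kb and over for 29.7%. Regions under 500 bp accounted for 1.80%. The fold enrichment that the peak caller gave each region did not differ in the same direction: its median was 2.44 in EV and 2.59 in WT. These medians cover called regions only, whose lowest fold was 1.35 in EV and 1.62 in WT. The median −log10 q, the caller's confidence in a region, was 1.82 in EV and 1.60 in WT. A −log10 q of at least 2 was reached by 40.0% of EV and 27.6% of WT regions. Among regions of that strength the ratio of WT to EV coverage was 0.499, against 0.704 over all regions. Caller confidence rose with width in both lists and was lower in WT within each width class. Its median under 500 bp was 1.60 in EV and 1.43 in WT, and at 5 kb and over 3.57 and 2.93. The part of caller confidence in the coverage difference was not tested.

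**Figure D1:**
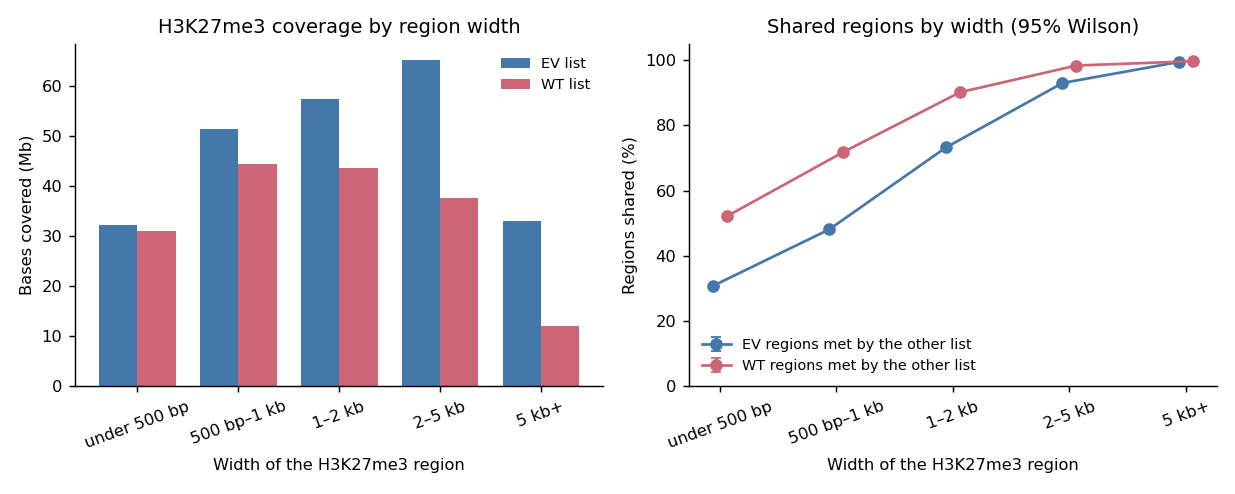
Left, bases covered by H3K27me3 regions (Mb) in each width class of the EV and WT lists; right, the share of each class that met the other list (%), with 95% Wilson intervals narrower than the points. The bars of the lists are nearly level under 500 bp and part with width, and the shares climb from 30.8% (EV) and 52.2% (WT) in the narrowest class to 99.5% and 99.7% in the widest.

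Almost every wide EV region still met a WT region, and most narrow ones did not. A region was called shared when it overlapped the other list by at least 1 bp. Of the EV regions, 118344 of 231795 were shared (51.1%, 95% Wilson interval 50.9% to 51.3%, which covers counting error only). The shared part was 30.8% under 500 bp, 48.1% at 500 bp to 1 kb, 73.3% at 1 to 2 kb, 93.0% at 2 to 5 kb and 99.5% at 5 kb and over. Of the WT regions, 135661 of 199801 were shared (67.9%, 67.7% to 68.1%), from 52.2% under 500 bp to 99.7% at 5 kb and over. Of the EV regions of 5 kb and over, 23 of 4482 met no WT region, and 5 of 1710 such WT regions met no EV region.

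Sharing also followed strength within a width class. Among EV regions of 500 bp to 1 kb, 56.6% of those above the class median of −log10 q were shared, against 39.7% of those below it. For EV regions under 500 bp these shares were 35.5% and 26.1%. The stronger regions were shared more often in each of the 5 width classes of either list.

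Bases were lost in similar amounts from regions that persisted and from regions that were called in EV alone. The 239 Mb of EV divided into 108 Mb also covered in WT, 64.3 Mb trimmed from regions that were shared, and 66.7 Mb in regions found in EV only. These parts were 45.2%, 26.9% and 27.9% of the EV list. The 168 Mb of WT divided into the same 108 Mb, 29.4 Mb in shared regions outside EV, and 30.9 Mb in regions found in WT only (64.2%, 17.5% and 18.3%). EV bases in regions of 5 kb and over were covered in WT at 73.0%, those in regions of 2 to 5 kb at 56.6%, and those under 500 bp at 23.1%.

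Wide EV regions were commonly met by several WT regions. Of the shared EV regions of 5 kb and over, 87.1% met at least 2 WT regions (3885 of 4459), and their mean number of WT regions was 2.96, with a highest number of 13. At 2 to 5 kb, 56.6% met at least 2 (11489 of 20306). In the other direction, 53.1% of shared WT regions of 5 kb and over met at least 2 EV regions, with a mean of 1.86.

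Regions called in a single line were short and often close to a region of the other. The 113451 EV-only regions had a median width of 463 bp, against 921 bp for shared EV regions, and the 64140 WT-only regions one of 400 bp, against 674 bp. The nearest WT region lay at a median of 2177 bp from an EV-only region, and 31.9% lay within 1 kb. For WT-only regions the nearest EV region was at a median of 1297 bp, with 43.3% within 1 kb. Distances over 10 kb were found for 21.3% of EV-only and 11.9% of WT-only regions. Over 100 kb away were 3438 EV-only regions (3.03%) and 838 WT-only regions (1.31%).

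Line-only regions of at least 2 kb numbered 1545 in EV and 213 in WT. Of these, 423 EV and 42 WT regions lay over 10 kb from the other list. Chromosome 10 held 48 of the 213 WT-only wide regions (22.5%) and 30 of the 1545 EV-only ones (1.94%). Of all regions of at least 2 kb, shared or not, it held 624 of 14700 in WT and 769 of 26310 in EV.

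The widest EV-only region was 7.23 kb long, on chromosome 15 from 68903775 to 68911006. Its fold enrichment in EV was 2.66, it lay 39.3 kb from the nearest WT region, and HEAA had no region there. The next was on chromosome 3 from 138068011 to 138074939 (6.93 kb, 8.44 kb from WT). Among the 10 widest, chromosome 7 held 4 and chromosome 15 held 3. Of all EV-only regions of at least 2 kb, these chromosomes held 9.90% and 4.34%. HEAA regions covered at most 33.0% of any of the 10 widest and met 7 of them. They met 15 of the 23 EV-only regions of 5 kb and over (65.2%), so this count does not set the 10 apart.

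The widest WT-only region was 8.29 kb long, on chromosome 10 from 131802294 to 131810583, 24.5 kb from the nearest EV region. Its fold enrichment in WT was 2.26, and HEAA regions covered 83.3% of it. Chromosome 10 held 5 of the 10 widest, and 3 lay close together on chromosome 16, from 66033121 to 66038759, from 66104133 to 66108244 and from 66143763 to 66148999. HEAA covered 78.6%, 100% and 100% of these 3. It covered 45.9% or more of each of the 10. Of all WT-only regions of at least 2 kb, 22.5% were on chromosome 10 and 7.51% on chromosome 16.

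By fold enrichment the first EV-only region was 422 bp on chromosome 2, from 16335687 to 16336108 (4.69-fold), and HEAA covered all of it. The EV-only region ranked 3, 4.94 kb on chromosome 20 from 45523608 to 45528542 (4.26-fold), was 100 kb from the nearest WT region and absent from HEAA. The first WT-only region lay on chromosome 5 from 167639635 to 167640117 (4.30-fold), 17.4 kb from EV, with 86.5% of it covered in HEAA.

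Over the lists, 39.9% of EV-only regions met an HEAA region (39.6% to 40.2%), and 86.5% of shared EV regions did. For WT-only regions the share was 52.3% (51.9% to 52.7%), and for shared WT regions 85.6%. WT-only regions of 2 to 5 kb met HEAA in 203 of 208 cases (97.6%), and EV-only regions of that width in 1025 of 1522 (67.3%). WT and HEAA were both set against the same EV list, and the HEAA list was the longest of the 3, so these shares describe the lists and test nothing.

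To see the mark at the scale of whole domains, EV and WT regions were joined across gaps of up to 3 kb. This gave 80925 domains, of which 42934 (53.1%) held regions of both lists, 25833 of EV only and 12158 of WT only. All 795 domains of 50 to 100 kb and all 144 of 100 kb and over held both. Domains were joined from both lists and classed by the joined width, so that wide ones held both is largely set by the joining. A difference of at least 2-fold in covered bases was found downward in WT in 48.4% of all domains and upward in 19.3%, which includes the domains of a single short region. Among the 144 widest, 1 was 2-fold lower and 1 was 2-fold higher. Among those of 50 to 100 kb, 43 were lower and 12 higher.

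Wide domains had less of their length covered in WT than in EV. In domains of 100 kb and over, regions filled 66.0% of the length in EV and 58.2% in WT, with WT lower in 113 of 144. In domains of 50 to 100 kb the filling was 59.1% and 48.9%, with WT lower in 642 of 795. The ratio of WT to EV coverage rose with the width of the domain, from 0.558 under 5 kb through 0.658, 0.762 and 0.827 to 0.882 at 100 kb and over. The joined width itself depends on WT coverage, and the part of this in the rise was not tested. Inside the widest domains the number of separate regions went from 6370 in EV to 7439 in WT, and their mean width from 2010 to 1518 bp.

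**Figure D2:**
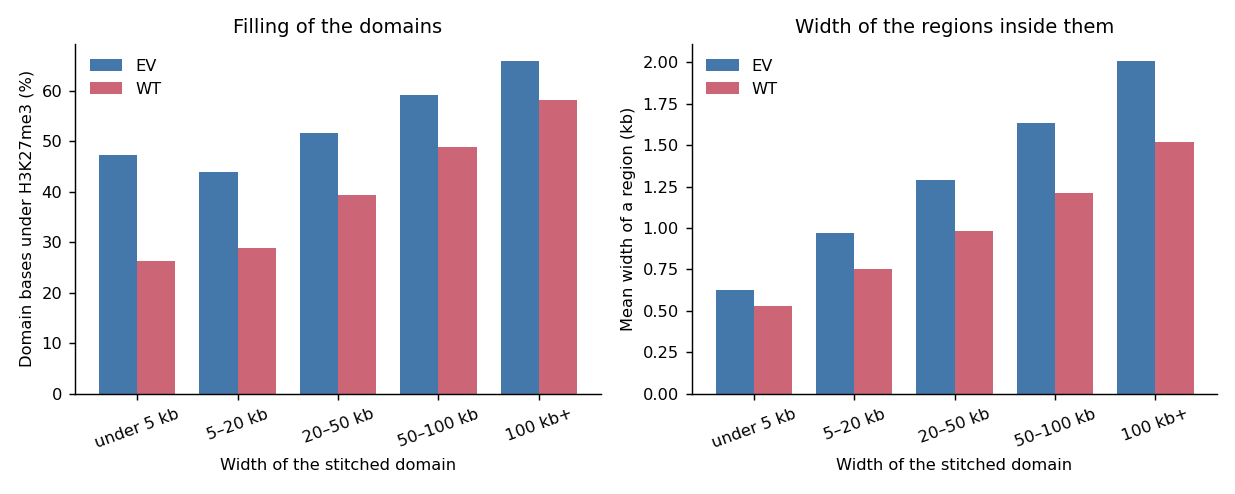
Left, share of the length of joined H3K27me3 domains covered by EV and by WT regions (%), by domain width; right, mean width of the single regions inside them (kb). WT is below EV in every class, with the smallest gap in filling in domains of 100 kb and over (66.0% against 58.2%).

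The domain that lost most bases lay on chromosome 1 from 152629693 to 152821643. Of its 192 kb, regions covered 116 kb in EV, 63.0 kb in WT and 89.1 kb in HEAA. Next came chromosome 7 from 25303008 to 25486326 (159 kb in EV and 117 kb in WT) and chromosome 20 from 24197712 to 24296516 (68.1 and 25.8 kb). The domain on chromosome 11 from 134700308 to 134795411 went from 76.8 to 37.6 kb. In each of the 10 largest losses HEAA lay between EV and WT, which was so in 414 of the 755 domains of 50 kb and over with less coverage in WT (54.8%). H3K4me1 covered more bases in WT than in EV in all 10, and in 468 of the 755 (62.0%). On chromosome 20 this was 5.00 kb against 0.512 kb, and on chromosome 1 it was 9.90 kb against 4.01 kb.

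The domain that gained most lay on chromosome 10 from 125164858 to 125292991. Its 128 kb were covered over 27.9 kb in EV, 93.9 kb in WT and 104 kb in HEAA. A domain on chromosome 5 from 5024485 to 5123281 went from 9.19 kb in EV to 65.6 kb in WT and 69.0 kb in HEAA. On chromosome 10 from 122378483 to 122434050 the values were 3.79, 38.1 and 42.2 kb. Chromosome 10 held 4 of the 10 largest gains, and of all regions 9747 of 231795 in EV and 10386 of 199801 in WT. HEAA was above EV in all 10 gains, as in 181 of the 184 domains of 50 kb and over with more coverage in WT. H3K4me1 covered more bases in WT than in EV in 6 of the 10 and in 121 of the 184 (65.8%).

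The widest domain of all, 364 kb on chromosome 20 from 57717054 to 58080590, changed little: regions covered 275 kb in EV and 284 kb in WT. Of the 10 widest domains, 8 had fewer covered bases in WT and 2 had more, with ratios from 0.543 to 1.07.

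Across the genome in bins of 1 Mb, coverage was lower in WT in most bins and 2-fold higher in few. Of 3049 bins, the 2297 with at least 20 kb covered over both lists were compared. WT coverage was below EV in 2058 of them (89.6%), with a median ratio of 0.644 and quartiles of 0.484 and 0.800. At least 2-fold lower were 621 bins, 27.0% of those compared, and at least 2-fold higher were 29, or 1.26%. With each list divided by its own total these counts were 256 and 73, so that the lower bins made up 77.8% of all called bins in place of 95.5%.

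Bins poor in the mark in EV were called more often than rich ones in both directions, which the grouping itself partly sets. The bins were put into 4 equal groups by EV coverage. In the group with the least coverage 41.4% were called lower, and in the group with the most 7.67%. Called higher were 19 of 575 (3.30%) and 0 of 574 in these groups. The ratio of summed coverage was 0.647 and 0.749 in these groups. EV coverage set the groups and was also the denominator of the call. A bin with EV coverage below the minimum required over both lists was compared only if WT covered the rest. This rule favours higher calls in the group with the least coverage. The part of the grouping and of this rule in the counts was not tested. EV and WT coverage kept much the same order over the 2297 bins, with Pearson's r of 0.877 on the log2 scale and Spearman's rho of 0.904. The points share 2 libraries and the base composition of each bin, so these values are a description.

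**Figure D3:**
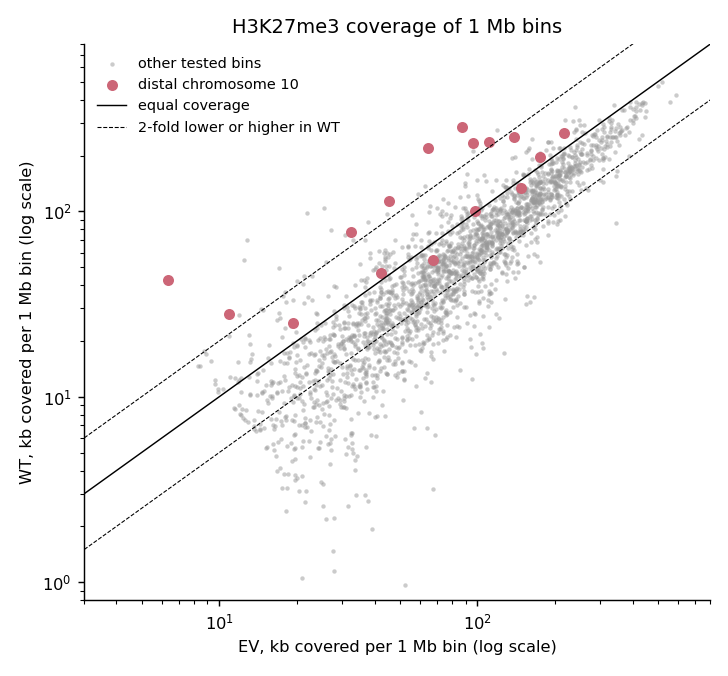
Kilobases covered by H3K27me3 regions in each 1 Mb bin, EV on the horizontal and WT on the vertical axis, both logarithmic; each point is 1 of the 2297 bins compared, and the 16 bins of distal chromosome 10 are in red. Most points lie under the line of equal coverage, and 8 of the 16 red points lie on or above the line of 2-fold higher coverage.

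The largest drop was on chromosome 13 in the bin from 94000001 to 95000000, where regions covered 345 kb in EV, 87.1 kb in WT and 210 kb in HEAA. H3K4me1 also covered less there, 33.3 kb in EV and 19.9 kb in WT. The bin on chromosome 12 from 114000001 went from 345 kb in EV to 155 kb in WT, with 226 kb in HEAA. On chromosome 11 the bin from 134000001 went from 346 to 166 kb, with 244 kb in HEAA. In all 10 largest drops WT was the lowest of the 3 lines, as it was in 617 of the 621 bins called lower and 2053 of all 2297. H3K4me1 covered more in WT than in EV in 9 of the 10 and in 1810 of the 2297 (78.8%), so neither count sets these bins apart. A neighbouring pair of bins on chromosome 22 was among these drops, from 27000001 (306 to 144 kb) and from 28000001 (160 to 32.6 kb).

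The largest gain was on chromosome 10 in the bin from 131000001 to 132000000, with 87.2 kb in EV, 287 kb in WT and 326 kb in HEAA. The bin from 122000001 on the same chromosome went from 64.4 to 219 kb, with 274 kb in HEAA. On chromosome 5 the bin from 5000001 went from 119 to 273 kb, with 320 kb in HEAA. HEAA was above WT in all 10 largest gains, as in 2287 of the 2297 bins compared. H3K4me1 covered more in WT than in EV in 9 of the 10, against 78.8% of all bins compared. The exception was chromosome 15 from 94000001, where H3K27me3 went from 96.0 to 212 kb while H3K4me1 went from 101 to 91.6 kb.

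The distal long arm of chromosome 10 ran against the genome-wide direction. The stretch from 120000001 to the end of the chromosome was chosen after the values of the bins were seen. It made up 16 bins, of which 14 had more coverage in WT, 8 were called higher (50%, against 1.26% of all bins compared) and 0 were called lower. Chromosome 10 held 12 of the 29 called higher. In EV, 1.36 Mb of the stretch was under H3K27me3 regions. WT had 2.31 Mb there (1.70 times EV) and HEAA had 2.97 Mb (2.18 times). Over the rest of chromosome 10 the WT ratio was 0.839, and over all other chromosomes 0.697. Of the 213 WT-only regions of at least 2 kb, 36 lay on this stretch (16.9%), and of all WT regions that wide 1.93% did.

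H3K4me1 moved the same way there. It covered 0.830 Mb of the stretch in EV, 1.48 Mb in WT (1.78 times) and 1.58 Mb in HEAA (1.90 times), and was higher in WT in all 16 bins. The WT to EV ratio of H3K4me1 over all bins compared was 1.14. H3K27ac coverage of the stretch was 1.42 times EV in WT library 1 (1.09 over all bins) and 0.933 times in library 2 (0.772 over all bins). Each of these ratios was above its genome-wide value on distal chromosome 10, and what part the joint rise of the marks has in the H3K27me3 difference was not tested. The lists do not give DNA copy number and the input samples were not used here, so the coverage ratios of this stretch do not separate a change in the marks from a difference in copy number between the lines, which was not tested.

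**Figure D4:**
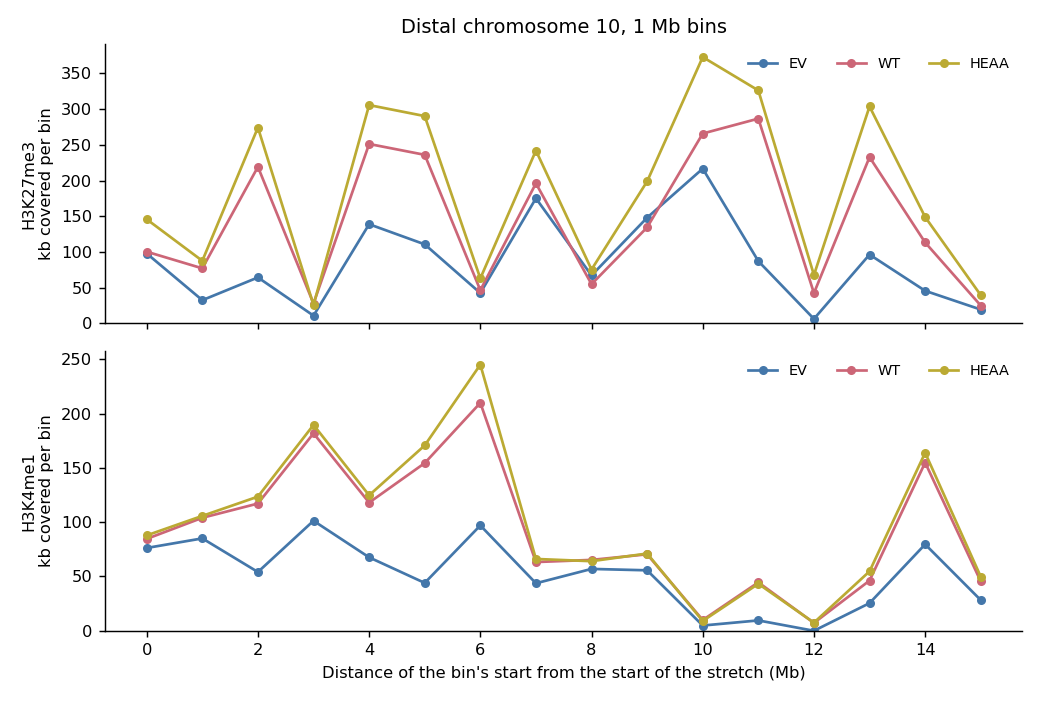
Kilobases covered by H3K27me3 (top) and H3K4me1 (bottom) in each 1 Mb bin of distal chromosome 10, in EV, WT and HEAA, against the distance of the bin from the start of the stretch (Mb). WT lies above EV in 14 of 16 bins for H3K27me3 and in 16 of 16 for H3K4me1.

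Outside distal chromosome 10, H3K4me1 also covered more in WT in the 21 remaining bins called higher, taken as a group. H3K27me3 coverage of these was 0.720 Mb for EV, 1.79 Mb for WT and 2.56 Mb for HEAA. Their H3K4me1 coverage was 0.635 Mb in EV and 0.921 Mb in WT, a ratio of 1.45, against 1.67 over all 29. Over the 621 called lower, H3K27me3 coverage was 41.5 Mb for EV, 15.7 Mb for WT and 29.6 Mb for HEAA, and the H3K4me1 ratio was 1.11. Over 2079 bins, fewer than the 2297 compared above, the log2 ratio of H3K27me3 was set against that of H3K4me1. Pearson's r was 0.289 and Spearman's rho 0.214. Without chromosome 10 these were 0.256 and 0.188 over 1983 bins. The bins share the same libraries and their own base composition, and the correlation is given as a description.

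Only 8 runs of at least 4 neighbouring bins had WT coverage at or above EV throughout. The 3 on chromosome 10 included those from 120000001 to 128000000 (1.72 times EV) and from 130000001 to 136000000 (2.05 times). Chromosome 5 from 1000001 to 7000000 was 1.37 times EV, with H3K4me1 at 1.64 times. Chromosome 20 held 2 runs, at 1.18 and 1.11 times EV.

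H3K4me1, the enhancer mark, gained ground where H3K27me3 was called in EV alone. It overlapped 3094 of the 113451 EV-only regions in EV (2.73%, 2.63% to 2.82%), 4875 in WT (4.30%, 4.18% to 4.42%) and 5415 in HEAA (4.77%). The WT to EV ratio was 1.58, while the whole H3K4me1 list covered 1.14 times as many bases in WT as in EV. Of the EV-only regions, 2904 had H3K4me1 in WT and not in EV, and 1123 the reverse. At shared EV regions the mark went from 4.30% in EV to 5.55% in WT, a ratio of 1.29. At WT-only regions it was 1.84% in EV and 1.98% in WT, a ratio of 1.08. Among WT-only regions at least 1 kb wide and 1 kb away from EV the direction turned, with 5.82% in EV and 5.71% in WT. The intervals cover counting error only, with 1 H3K4me1 list per line, and the differences between these ratios were not tested.

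**Figure D5:**
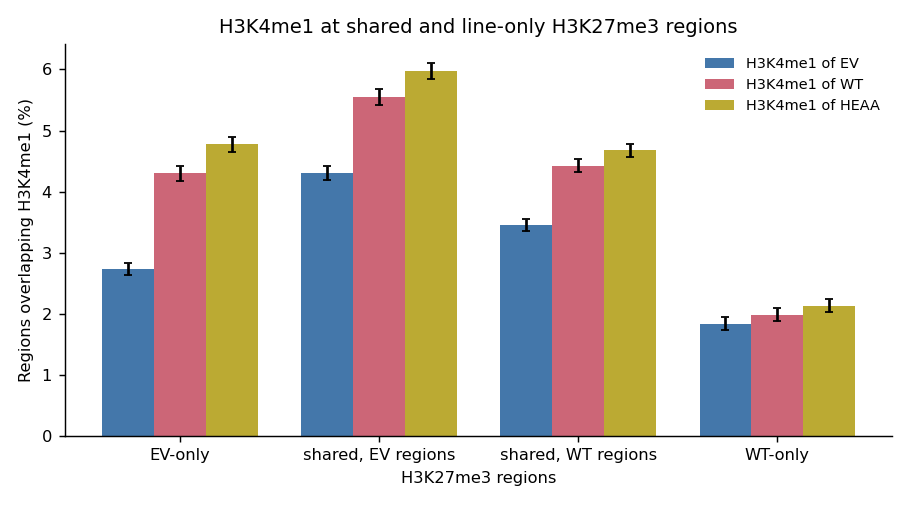
Share of H3K27me3 regions that overlap an H3K4me1 region of EV, WT or HEAA (%), for EV-only, shared and WT-only regions, with 95% Wilson intervals as bars. WT exceeds EV most at EV-only regions (2.73% to 4.30%) and least at WT-only regions (1.84% to 1.98%).

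The gain of H3K4me1 at EV-only regions was present in every width class. The share went from 2.06% in EV to 3.17% in WT under 500 bp, from 2.80% to 4.39% at 500 bp to 1 kb, from 4.81% to 8.18% at 1 to 2 kb, and from 12.9% to 19.4% at 2 to 5 kb. Of the 23 EV-only regions of 5 kb and over, 8 had it in EV and 12 in WT. In bases, H3K4me1 covered 1.52% of EV-only regions in EV and 2.62% in WT. At WT-only regions the covered bases were 1.22% in EV and 1.19% in WT. EV-only regions that HEAA also lacked went from 3.15% with H3K4me1 in EV to 5.29% in WT, and those present in HEAA from 2.10% to 2.80%.

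Taking every base, the marks rarely replaced one another. Of the 235 Mb that carried H3K27me3 without H3K4me1 in EV, 44.6% did so in WT too and 54.0% carried neither mark in WT. A switch to H3K4me1 alone was seen for 1.95 Mb (0.827%), and 1.22 Mb came to carry both. The opposite switch, from H3K4me1 alone to H3K27me3 alone, covered 0.350 Mb, 0.228% of the H3K4me1 bases concerned. Bases with both marks went from 3.71 Mb in EV to 3.06 Mb in WT, a ratio of 0.825. Of those 3.71 Mb, 28.6% kept both, 26.6% carried H3K4me1 alone in WT, 23.4% H3K27me3 alone and 21.5% neither.

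H3K4me1 also covered more of the joined H3K27me3 domains, 6.80 Mb in EV and 9.67 Mb in WT, a ratio of 1.42. HEAA was higher still, at 10.3 Mb and 1.52 times EV. The whole H3K4me1 lists were 1.14 (WT) and 1.18 (HEAA) times EV. More domains gained than lost H3K4me1 bases, 7801 against 4311 of the 80925. In the domains of 100 kb and over it was 1.55 times as high in WT as in EV, higher in 108 and lower in 32 of the 144. In HEAA it was 1.68 times EV there.

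H3K27ac hardly met H3K27me3 in any library, and the 2 libraries of a line did not give 1 direction at EV-only regions. It overlapped 79 of the 113451 EV-only regions in each EV library (0.0696%), and 328 (0.289%) and 66 (0.0582%) in WT libraries 1 and 2. The mean difference of 0.104 percentage points did not differ beyond the libraries' spread (exact two-sided permutation test, p = 1, with 0.333 the smallest p that 2 against 2 libraries allow). At WT-only regions the shares were 0.115% and 0.101% in the EV libraries and 0.0437% and 0.0218% in the WT libraries. Both WT libraries were below both EV libraries there, with a difference of −0.0756 points and the smallest p possible, 0.333 (same test). The labels do not say whether the numbered libraries came from separate cultures, so this p measures only their spread. The H3K27ac lists themselves differed in opposite directions between the numbered libraries, with WT coverage 1.09 times EV in library 1 and 0.772 times in library 2, and the part of this in the shares was not tested.

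At a small set of line-only H3K27me3 regions, H3K27ac calls differed the opposite way in all 4 H3K27ac libraries. The set was picked after these values were seen. The H3K27me3 side rests on 1 list per line. H3K27ac was called in both WT libraries and neither EV library at 24 EV-only regions, with the opposite at 8. At shared EV regions these counts were 10 and 2, so the imbalance was not limited to EV-only regions. HEAA had H3K27me3 at 1 of the 24, against 39.9% of all EV-only regions. H3K4me1 was present at 20 of the 24 in EV and at 20 in WT, against 2.73% and 4.30% of all EV-only regions. The 24 were picked by H3K27ac, and their median width was 1155 bp, against 463 bp for all EV-only regions. The part of the pick and of width in the H3K4me1 share was not tested. Most of the 24 thus carried the enhancer mark in EV as well as H3K27me3. The strongest by fold was the 4.94 kb region on chromosome 20 from 45523608 to 45528542 described above. Others lay on chromosome 18 from 7567590 to 7570742 (3.42-fold) and on chromosome 1 from 202183602 to 202188671 (5070 bp, 3.37-fold).

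In the opposite direction, 19 WT-only regions had H3K27ac in both EV libraries and neither WT library, and 2 had the reverse. HEAA had H3K27me3 at 13 of the 19, against 52.3% of all WT-only regions. H3K4me1 was present at 16 of the 19 in EV and at 18 in WT, against 1.84% and 1.98% of all WT-only regions. Of the 19, 4 lay within a short stretch of chromosome 15. They ran from 93605625 to 93606008, from 93615601 to 93616269, from 93631718 to 93632253 and from 93956734 to 93957788. This stretch adjoins the 1 Mb bin of chromosome 15 named above for its gain. A further 2 lay side by side on chromosome 21, from 45670096 to 45670755 and from 45671170 to 45671791, inside a domain from 45633437 to 45716081. There H3K27me3 covered 31.2 kb in EV, 61.7 kb in WT and 64.9 kb in HEAA. H3K27ac covered 2.14 and 1.28 kb of that domain in the EV libraries, and 0.663 and 0 kb in the WT libraries.

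UTX itself was seldom found where H3K27me3 differed. A UTX peak of WT overlapped 1 EV-only region, 3 shared EV regions and 0 of the 64140 WT-only regions. Within 1 kb, EV-only regions had the lowest share, 0.0106% (12 regions, 0.00605% to 0.0185%). Shared EV regions had 0.0380% (45, 0.0284% to 0.0509%) and WT-only regions 0.0421% (27, 0.0289% to 0.0612%). Within 10 kb, a UTX peak of WT was found for 0.379% of EV-only regions (0.345% to 0.416%) and 0.370% of shared EV regions (0.337% to 0.406%), intervals that overlap. For WT-only regions the share was 0.472% (0.422% to 0.529%), the highest of these sets at this distance, with an interval that did not meet that of EV-only regions. Within 100 kb WT-only regions had the lowest share, 5.95%, against 9.25% of EV-only and 7.80% of shared EV regions. UTX peaks of EV within 10 kb were found for 0.0132% of EV-only (15), 0.0330% of shared EV (39) and 0.0203% of WT-only regions (13). Several regions near 1 peak were each counted, which the intervals do not take into account. MLL4 peaks of WT within 10 kb were found for 0.110% of EV-only regions (0.0925% to 0.131%) and 0.0465% of shared EV regions (0.0357% to 0.0605%). For WT-only regions the share was 0.0592% (0.0432% to 0.0813%). MLL4 peaks of EV within 10 kb were found for 0.0309% of EV-only (35), 0.0135% of shared EV (16) and 0.0109% of WT-only regions (7). EV-only regions thus ranked first without a UTX construct as well, while shared EV and WT-only regions changed places. These intervals cover counting error only, and no difference was tested across libraries. An MLL4 peak of WT overlapped 1 EV-only and 0 shared EV regions.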

How the data were processed

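Chromatin immunoprecipitation sequencing lists of 18 samples were used, and the 6 input samples were not used here. Groups came from the sample titles. MACS2 and hg19 (GRCh37) are named per the submitters' processing notes. The caller's version, the aligner, the filters and the control were not given in the sources used here. Fold enrichment of a region is a linear ratio that the authors deposited. The −log10 p-value and q-value are likewise deposited by the authors, with q at or below 0.1 in the broad lists. These values served to rank and filter regions within a list. Their medians were also set side by side between the lists, and the same q limits were applied to both.

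Positions were then compared with custom code, tested on simulated data, in Python 3.11.15, NumPy 2.4.6, pandas 2.3.3, SciPy 1.17.1 and matplotlib 3.10.9. There were 104 EV and 100 WT regions on other contigs, which were left out. Named are the 10 widest line-only regions of each line and the 5 with the highest fold, the 10 domains with the largest loss, the largest gain and the greatest width, and the 10 called bins with the largest loss and gain, of which examples are given. These rules, and the members, were chosen with earlier results of these data known. An hg19 annotation was not used here, so regions were not assigned to genes and the planned gene lists were not run. Alternatives were tried for the q threshold, overlap rule, list length, bin size, scaling, chromosomes and replicates.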

Additional observations from a re-analysis of the deposited data

How the results depend on the processing

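The ratio of WT to EV coverage, 0.704, was 0.499 and 0.308 with a −log10 q of at least 2 and 3, 0.774 after joining across gaps of up to 3 kb and, chosen after seeing the data, 0.694 without chromosome 10 and 0.753 with the EV list cut to the length of WT by q. It stayed below 1 in all of these and without chromosome X (0.707). The shared part of EV regions (51.1%) was 33.6% when most of a region had to be covered, 66.7% within 1 kb, 54.8% with the EV list cut, 68.9% with a −log10 q of at least 2 and 57.0% after joining. For WT regions (67.9%) these were 55.5%, 81.8%, 64.1%, 83.7% and 70.8%. Bins lower and higher in WT, 621 and 29, numbered 968 and 63 at 500 kb, 94 and 2 at 5 Mb, and 256 and 73 with each list divided by its total; the number of bins itself changes with their size.

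The H3K4me1 difference of 1.57 points at EV-only regions was 3.70 with H3K4me1 within 1 kb and 4.29 for regions at least 1 kb wide and 1 kb away from WT. At WT-only regions it was 0.150, 1.01 and −0.104 points, so its sign turned under the last rule; the cause was not tested. The H3K27ac difference at EV-only regions ranged from −0.0115 points without replicate 1 to 0.219 without replicate 2, and at WT-only regions from −0.0795 to −0.0717. With the replicate block the differences stayed at 0.104 (exact sign-flip permutation, p = 1) and −0.0756 (p = 0.5), and the shared numbers are not stated to pair the libraries. The depth of every list is unknown, and 1 H3K27me3 list per line limits all comparisons above.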
